A study of Mus musculus with 2 samples.

Results

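Mir191 and Mir425 are neighboring microRNA (miRNA) genes of mouse chromosome 9 that are regarded as housekeeping miRNAs, because both are found in most tissues. They are 2 of the 2202 annotated miRNA genes counted in the data and were chosen by name, through the GENCODE M21 symbols of the Ensembl identifiers. Small RNA was sequenced from the adrenal gland of adult female mice of the strain 5xFAD/CAST, aged 8 to 10 months. 5xFAD mice carry transgenes that model Alzheimer's disease, and CAST stands for an inbred line of castaneus origin. The labels do not state the transgene status of single animals, and the data hold 1 group of 2 libraries with no contrast between conditions. The libraries are biological replicates 2 and 1 of the labels, which have a biosample each but the same donor identifier, and differences between these libraries may be technical.

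A miRNA gene is transcribed as part of a longer primary transcript, from which a hairpin is cut in the nucleus. The hairpin is then cut again to a short duplex, and 1 arm of it, 5p or 3p, is loaded into an Argonaute protein to repress messenger RNAs that pair with its seed. Hairpins cut from a shared primary transcript can still reach different levels, since processing, arm choice and decay act on each of them. miR-191 is widely used as a reference for scaling miRNA measurements, and in mouse it is also known for a role in the last steps of red cell maturation. miR-425 is used as a reference too, and in human cells it is known to repress NPPA, the gene of atrial natriuretic peptide.

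The sequences show how the hairpins differ from each other and from other annotated miRNA genes. All are from RefSeq on GRCm38.p6, 5′ to 3′, both genes matched the table, and both hairpins were identical to the GENCODE transcripts. In the hairpins, capitals mark the annotated mature arms.
Mir191 hairpin: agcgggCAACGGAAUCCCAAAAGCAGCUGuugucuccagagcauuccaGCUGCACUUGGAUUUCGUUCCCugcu
Mir425 hairpin: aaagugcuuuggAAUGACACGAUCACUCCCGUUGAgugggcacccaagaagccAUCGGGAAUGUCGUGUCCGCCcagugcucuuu

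In the mature sequences, capitals mark the seed, bases 2 to 8.
mmu-miR-191-5p: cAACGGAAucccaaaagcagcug
mmu-miR-191-3p: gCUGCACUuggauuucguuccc
mmu-miR-425-5p: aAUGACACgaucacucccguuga
mmu-miR-425-3p: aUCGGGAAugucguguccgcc
mmu-miR-489-3p: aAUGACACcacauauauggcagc

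The 4 arms of the pair carry 4 different seeds. Among 1679 mature mouse miRNA names in the table, no other one had the seed of miR-191-5p, miR-191-3p or miR-425-3p. The seed of miR-425-5p was shared with 1 other miRNA, miR-489-3p, shown for that reason. Mir489 had 0 reads in replicate 2 and 0 in replicate 1, and 3 counts as the limit allow up to 0.433 CPM in replicate 2 and 0.825 CPM in replicate 1 for uniquely assigned reads. No 20-base stretch of either hairpin occurred on the same strand in another annotated miRNA gene. The rest of the genome was not searched. The hairpins are 74 bases long for Mir191 and 85 for Mir425, with a predicted folding energy of -35.0 and -31.7 kcal/mol (RNAfold), and a G and C content of 54.1% for both.

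On mm10, Mir191 (ENSMUSG00000105497.1) lies at chr9:108568319-108568392 and Mir425 (ENSMUSG00000065579.1) at chr9:108568777-108568861, both on the plus strand. They are 384 bases apart and together span 543 bases. GENCODE M21 places both in an exon of a long noncoding gene, 4833445I07Rik, at chr9:108567533-108569174, in the transcript with 1 exon. In the other transcript of that gene, Mir191 falls in the intron and Mir425 lies beyond the last exon. Dalrd3, the protein-coding gene usually named as their host, starts 1024 bases downstream of Mir425 in GENCODE M21, whereas in RefSeq its span of 5290 bases holds both hairpins. A further annotated miRNA gene, Gm24083, lies on the minus strand at chr9:108568295-108568414 and covers all of Mir191, but not Mir425.

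**Figure D1:**
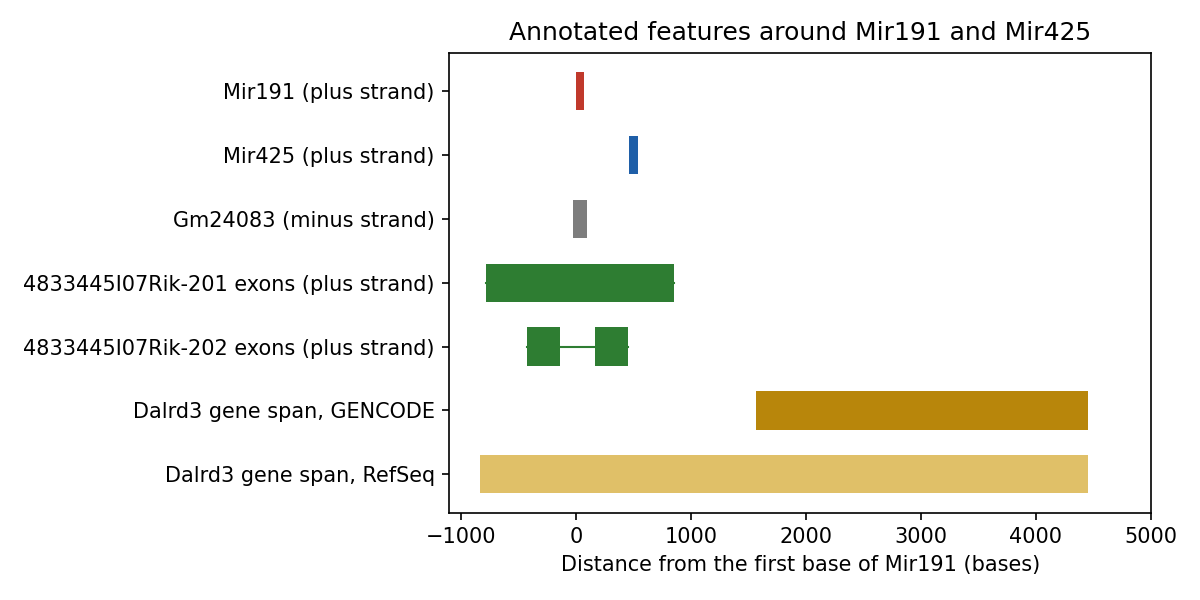
Annotated features around the pair, drawn to scale as distance in bases from the first base of Mir191. Boxes are genes or exons and the thin line is an intron. Mir191 and Mir425 lie 384 bases apart on the plus strand, Gm24083 covers Mir191 from the minus strand, and the Dalrd3 span holds both hairpins in RefSeq but not in GENCODE M21.

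The overlap with Gm24083 decides which count column can be read for Mir191. The deposited tables hold 3 columns without names, taken here from their values as reads of both strands, reads of 1 strand and reads of the other strand. The both-strand column gave Mir191 a count of 0 for each of the 2 libraries. In the strand column its count was 55320 in replicate 2 and 30979 in replicate 1, and the other-strand column gave Gm24083 the same numbers, 55320 and 30979. Gm24083 had 0 reads in the strand column. Equal numbers are what the same reads give when counted for the gene on either side, and in the both-strand column reads over both genes stand in the ambiguous entry. Mir191 reads equaled 6.86% of the 805965 ambiguous reads in replicate 2 and 6.51% of the 476126 in replicate 1. Mir425, which no other miRNA gene overlaps, counted 5437 reads in replicate 2 and 3944 in replicate 1 by both the strand and the both-strand column, and 0 in the other-strand column of either library. All values that follow use the strand column, which held 6924829 miRNA-gene reads in replicate 2 and 3635851 in replicate 1, a ratio of 1.90. Levels are CPM, reads scaled to 1000000 miRNA-gene reads of the library. The libraries show endocrine and vessel miRNAs at high level. Mir375 and Mir7b of endocrine cells averaged 45225 ± 1738 and 3967 ± 107 CPM (SD, n = 2). Mir126a of endothelium averaged 49108 ± 10714 CPM and Mir143 of smooth muscle 21677 ± 1479 CPM. Mir122 of liver averaged 93.3 ± 21.5 CPM and Mir192 of kidney 23.0 ± 8.77 CPM. In whole tissue, fewer cells of a type and less RNA per cell cannot be told apart.

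Mir191 was an abundant adrenal miRNA and Mir425 a moderate one. Mir191 stood at 7989 CPM in replicate 2 and 8520 CPM in replicate 1, or 8255 ± 376 CPM (SD, n = 2), rank 24 of 2202 genes by the mean. As a share of miRNA-gene reads, with the exact 95% interval by the Clopper-Pearson method, this was 0.799% in replicate 2 (0.792 to 0.806%) and 0.852% in replicate 1 (0.843 to 0.862%). Mir425 stood at 785 CPM in replicate 2 and 1085 CPM in replicate 1, or 935 ± 212 CPM, rank 78. Its share was 0.0785% in replicate 2 (0.0764 to 0.0806%) and 0.108% in replicate 1 (0.105 to 0.112%). Neither gene's intervals overlapped between the libraries, but intervals cover counting error only. Fisher's exact test, which also covers counting error only, called 52.5% of the 455 genes tested. That is another criterion, and the share of genes whose intervals do not overlap was not computed. The lack of overlap is thus not read as a trait of the pair. In rank, Mir191 was at 26 in replicate 2 and 24 in replicate 1, and Mir425 at 87 in replicate 2 and 71 in replicate 1. The coefficient of variation over the libraries was 4.56% for Mir191 and 22.7% for Mir425. The median was 12.9% over the 76 genes that averaged 1000 CPM or more, a group that holds Mir191 and not Mir425. For Mir425 this median is therefore not matched for level, and all these values use plain totals.

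**Figure D2:**
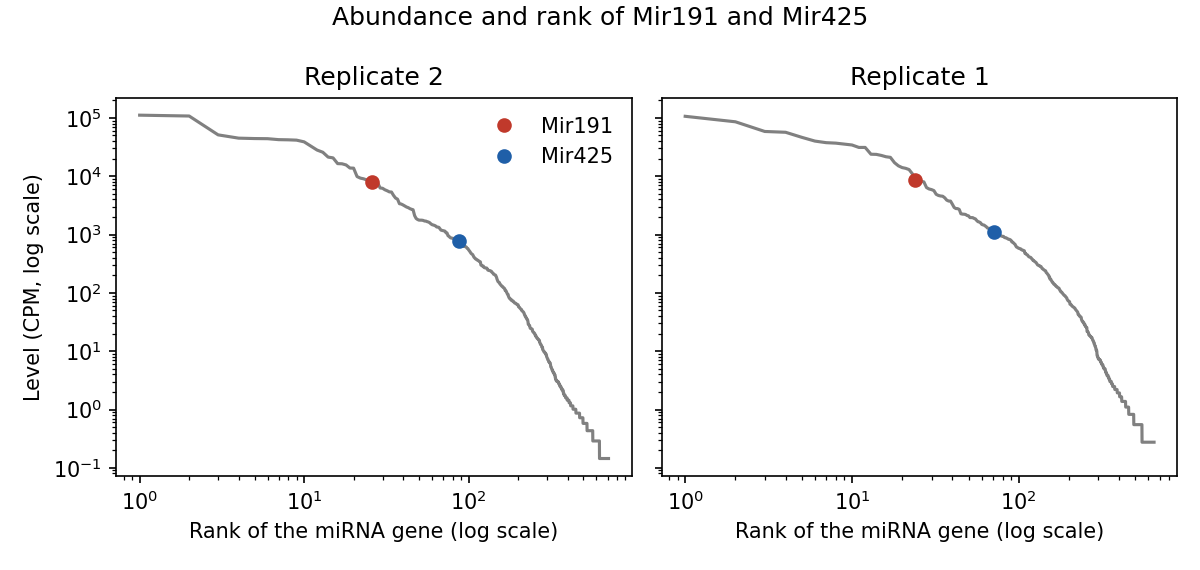
Level in CPM against rank for every miRNA gene with a read, in replicate 2 (left) and replicate 1 (right), both axes on a log scale. Mir191 sits at rank 26 and 24 and Mir425 at rank 87 and 71, between the leading genes and a long tail of genes with few reads.

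The genes next to Mir191 in level were Mir652, Mir29a and Mir322 above it, at 13902 ± 218, 12453 ± 3668 and 10163 ± 1259 CPM. Just below were Mir411, Mir744 and Mir151, at 7965 ± 315, 7864 ± 166 and 6986 ± 1864 CPM (SD, n = 2). Taken over both libraries, the values of Mir191 overlapped those of Mir411 and Mir151, and not those of Mir652, Mir29a, Mir322 and Mir744. The gap to Mir744 was narrow, with 7989 CPM for Mir191 in replicate 2 against 7981 CPM for Mir744 in replicate 1. Within each library, Mir191 stood above Mir411. The count of Mir411 is uncertain, because 20 bases or more of it also occur in another miRNA gene. Around Mir425, the order was not resolved, since its 2 values overlapped those of all 6 neighbors. These were Mirlet7c-2, Mir409 and Mir154 above it, at 1029 ± 211, 1003 ± 70.7 and 948 ± 178 CPM, and Mir129-2, Mir1839 and Mir872 below it, at 917 ± 955, 888 ± 650.3 and 885 ± 76.4 CPM. Mirlet7c-2 and Mir129-2 share sequence with another miRNA gene.

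Within the pair, Mir191 exceeded Mir425 in both libraries, by 10.2-fold in replicate 2 (exact 95% interval 9.90 to 10.5) and by 7.85-fold in replicate 1 (7.60 to 8.12). The ratio averaged 9.01 ± 1.64 (SD, n = 2), or 3.16 ± 0.26 on the log2 scale. CPM are not scaled to length, and the annotated 5p arms of both genes are 23 bases long. Counts are per hairpin, so the arms cannot be told apart, and ligation bias between sequences affects such a ratio between genes. Mir191 held 91.1% of the 60757 reads of the pair in replicate 2 and 88.7% of the 34923 in replicate 1. This ratio does not depend on the library total, and it was 1.30 times as high in replicate 2 as in replicate 1 (Fisher's exact test, two-sided, p = 2.54e-31). This p reflects counting error alone and concerns these particular libraries.

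The size of that shift was set beside other linked miRNA genes. Neighbors on 1 strand at most 10 kb apart, both with 10 reads or more in each library, formed 94 pairs. Their log2 ratio within the pair changed between the libraries by a median of 0.49 in absolute size, against 0.37 for Mir191 and Mir425, and 34 pairs changed less. The median level difference within a pair was 2.70 on the log2 scale, against 3.16 for Mir191 and Mir425, and 53 of the 94 pairs lay closer together in level. Among the 44 pairs with both genes averaging 100 CPM or more, 15 changed less and 30 lay closer in level. The shift of the Mir191 to Mir425 ratio was thus not larger than is common among linked genes of these libraries, as a description without a test. Pairs of 1 cluster share genes and a transcript and are not independent.

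**Figure D3:**
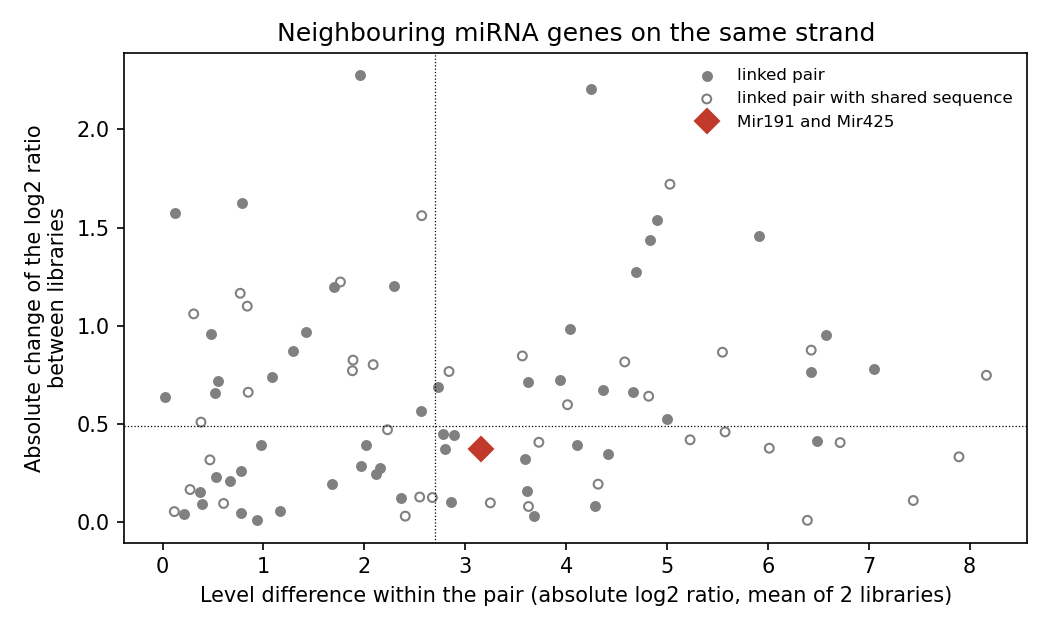
Each of the 94 linked pairs by the absolute log2 level difference within the pair (x axis, mean of the libraries) and the absolute change of that log2 ratio between the libraries (y axis). Dotted lines are the medians, 2.70 and 0.49. Mir191 and Mir425, at 3.16 and 0.37, lie to the right of the median level difference and below the median change. Open points are pairs with a gene whose sequence, over 20 bases or more, recurs in another miRNA gene.

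Between the libraries, Mir191 differed little and Mir425 more. Mir191 had a log2 ratio, replicate 2 over replicate 1, of -0.09 (95% counting interval -0.11 to -0.07), and Mir425 one of -0.47 (-0.53 to -0.41). Both were called lower in replicate 2 by Fisher's exact test with Benjamini-Hochberg adjustment, with an adjusted p of 4.13e-19 for Mir191 and 6.35e-52 for Mir425. Of the 455 genes tested, 52.5% were called, with 35.6% of the 455 lower and 16.9% higher in replicate 2, so a call by this test does not set the pair apart. The median log2 ratio of detected genes was -0.19 with plain totals and 0.01 with TMM totals, a shift of 0.20. With TMM totals, by which 25.5% of the 455 genes were called lower and 27.3% higher (52.7% in all), Mir191 turned to 0.11 (exact binomial test, adjusted p = 7.54e-25), while Mir425 stayed below 0 at -0.27 (adjusted p = 6.64e-18). By edgeR's exact test, which includes the spread between the libraries through a common dispersion, 1.1% of the 455 genes were called and neither member was, with an adjusted p of 1 for both and an unadjusted p of 0.886 for Mir191 and 0.474 for Mir425. The common dispersion, a coefficient of variation of 31.4% that edgeR terms biological, was estimated from the same 2 libraries. The difference under test thus also set the noise. Few calls, and a high p for a gene with a typical difference, follow from this design and say nothing about the pair.

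Set beside genes of like level, Mir191 was among those that differed least. Of 17 other genes within 2-fold of its mean CPM, 4 had a smaller absolute log2 ratio, and 2 did with TMM totals. The median absolute log2 ratio of these 17 genes was 0.26, and 0.41 with TMM totals. For Mir425, 35 of 57 other genes within 2-fold of its level had a smaller absolute log2 ratio, with a median of 0.39, and 21 of 57 with TMM totals, with a median of 0.30. This window was chosen after the values were seen. Nearest in log2 ratio to Mir191, among genes averaging 1000 CPM or more, were Mir335, Mir324 and Mir411 at -0.10, -0.10 and -0.08. Nearest to Mir425 were Mir351, Mir126a and Mir145a at -0.47, -0.45 and -0.49. These likenesses rest on 2 libraries only.

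**Figure D4:**
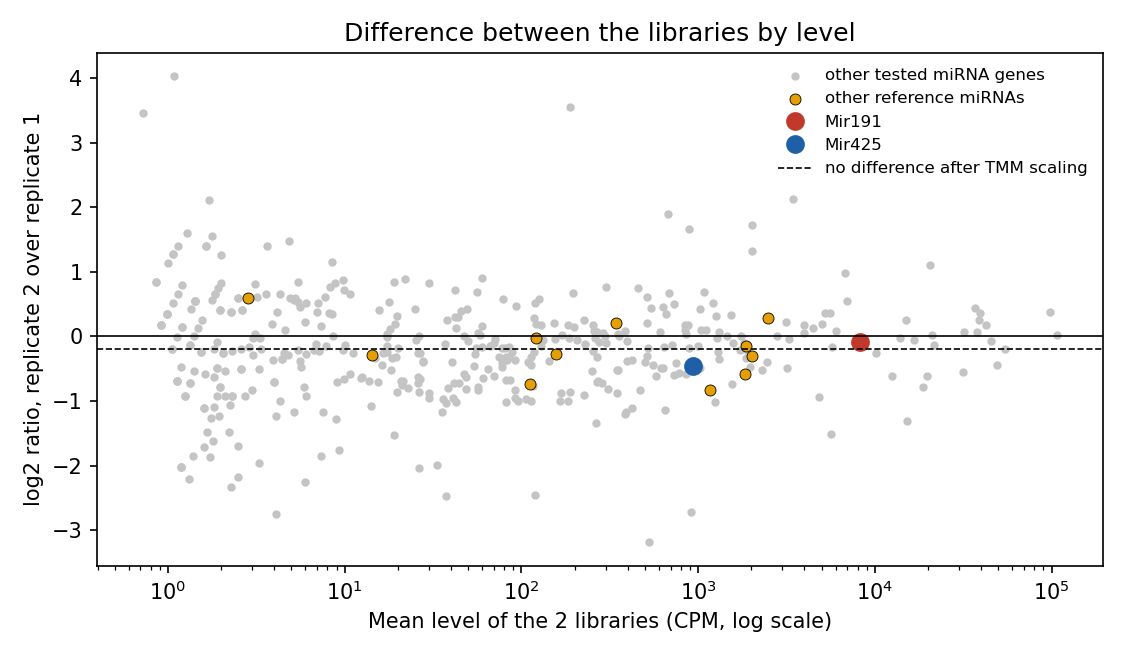
Log2 ratio, replicate 2 over replicate 1, against the mean level in CPM (log scale) for the 455 tested genes. The solid line marks equal CPM and the dashed line, at -0.20, equal levels after TMM scaling. Mir191 at -0.09 lies between the lines and Mir425 at -0.47 below both, and the other reference miRNAs spread from -0.82 to 0.60. The value of 0.60 is that of Mir103-1, with only 24 reads in replicate 2 and 8 in replicate 1, and the next highest is Mir320 at 0.28.

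The pair was also set beside 11 other miRNA genes that serve as references or are expressed in most tissues, for a list of 13. Of the 13, 12 had at least 10 reads in each library, and 8 were called lower and 2 higher in replicate 2 by Fisher's exact test, with 3 not called. Over all 455 genes tested, 35.6% were called lower and 16.9% higher (52.5% in all), and the list was not tested as a group. This test calls smaller differences in genes with more reads, and the 455 include genes with few reads. The shares are therefore not matched for level, and the calls are not read as a trait of the list. The median log2 ratio of the list was -0.27, against -0.18 over all 455 genes tested. With TMM totals 5 of the 13 were called lower and 4 higher, beside 25.5% and 27.3% of all tested genes, and the medians were -0.07 and 0.02. edgeR's exact test called 0 of the 13, and 0 of the 13 had an unadjusted p under 0.05, against 26 of all 455. Its dispersion came from the same 2 libraries, so few calls follow from the design. By uniquely assigned reads, Mir191 was the most abundant of the 13 and Mir425 the seventh, though list members that share sequence with another miRNA gene may be undercounted.

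The members of the list differed among themselves. Mir320 and Mir484, whose precursors are known to bypass the first nuclear cut, moved apart. Mir320 was at 2711 CPM in replicate 2 and 2238 CPM in replicate 1, a log2 ratio of 0.28 (adjusted p = 1.02e-47, Fisher's exact test). Mir484 was at 844 CPM in replicate 2 and 1494 CPM in replicate 1, a log2 ratio of -0.82 (adjusted p = 5.42e-197, Fisher's exact test). Mir423 had a log2 ratio of -0.58 and Mir186 of -0.73, both called lower. Mir93 and Mir25, neighbors within the miR-106b-25 cluster in Mcm7, were lower by nearly the same amount, with log2 ratios of -0.30 and -0.27. The third gene of that cluster, Mir106b, is not on the list and had a log2 ratio of -0.50. Mir361 was called lower at -0.14. With TMM totals Mir361 turned to 0.06 and was called higher (adjusted p = 0.0198, exact binomial test), and with DESeq2 size factors it was not called at 0.03, while with TMM totals Mir93 kept its direction at -0.10 and Mir25 was not called at -0.07. The duplicated genes Mir16-1, Mir16-2, Mir103-1 and Mir103-2 share sequence with another miRNA gene, so their counts are uncertain. Their log2 ratios were 0.20 and -0.03 for the Mir16 genes and 0.60 and -0.29 for the Mir103 genes, of which Mir16-1 was called.

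Scaling the libraries to the reads of 1 gene moves every log2 ratio by the same amount, so the values below restate the difference of that gene between the libraries. Replicate 2 held 1.79 times the Mir191 reads of replicate 1 and 1.38 times the Mir425 reads, against a ratio of 1.90 for all miRNA-gene reads and 1.66 for TMM totals. Scaled to Mir191, the median log2 ratio over the 356 detected genes was -0.10, with 103 genes called higher and 136 lower in replicate 2. Scaled to Mir425, the median was 0.27, with 189 genes called higher and 67 lower. Plain totals gave 77 higher and 162 lower, and TMM totals 124 and 116. These scalings were chosen after the data were seen and treat the reads of 1 gene as free of error.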

How the data were processed

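The deposited files are 1 table of raw counts per library with 2202 miRNA genes and 3 unnamed count columns. The deposited notes name mm10 as the assembly and GENCODE M21 as the annotation. Which aligner, counter and trimming the authors used is not given in the sources here. Replicate 2 held 15391360 reads and replicate 1 held 7774567, of which 33.6% and 31.6% were multimapping and assigned to no gene, and 16.5% and 16.1% were unmapped. These entries, and 4.99% and 5.55% on no gene, stayed out of totals.

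All 2202 identifiers matched GENCODE M21. The strand column was the main one, since the both-strand column drops Mir191. CPM used its total over genes. Genes with at least 10 reads in both libraries together were tested with a two-sided Fisher's exact test and Benjamini-Hochberg adjustment at 0.05 on the counts as deposited, as 1 library against 1 leaves edgeR's quasi-likelihood test no residual degrees of freedom. Exact binomial tests used TMM, DESeq2, Mir191 or Mir425 totals. edgeR's exact test used plain totals and a common dispersion from an intercept-only fit of the same 2 libraries, over the detected genes and with TMM factors. Log2 ratios used an offset of 0.5 counts. Fisher's test compares libraries, not conditions. No molecular identifiers are named in the labels and PCR copies are not independent, so intervals and floors of 3 counts cover counting error only. The counts differed beyond sampling noise (chi-square 232300, degrees of freedom 454), and the libraries were counted as separate samples.

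The members and lists were chosen with earlier results of these data known. Named are the members, the 3 genes above and below each in mean CPM and the 3 nearest in log2 ratio. Also named are the reference list, the overlapping genes and the markers Mir375, Mir7b, Mir126a, Mir143, Mir122 and Mir192 as a tissue check. Mir489 was added for its seed after the sequences were read, and Mir106b to complete the cluster of Mir93 and Mir25. The procedures were tested on simulated data. Tools were Python 3.11.15 with scipy 1.17.1, pandas 2.3.3, numpy 2.4.6 and matplotlib 3.10.9, RNAfold 2.7.2, and R 4.3.3 with DESeq2 1.42.0 and edgeR 4.0.16.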

Additional observations from a re-analysis of the deposited data

Results flagged for a closer look

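Gm24083, on the strand opposite to Mir191, is given 55320 reads of replicate 2 and 30979 of replicate 1 by the other-strand column. That column enters no comparison between the libraries. Both numbers are above the 3 counts that a count of 0 allows, but they equal those of Mir191 in the strand column. Equal numbers are what the same reads give, so they are not read as a signal of Gm24083.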

How the results depend on the processing

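Mir191 averaged 0 CPM in the both-strand column, where it has no rank or ratio to Mir425, and 0 CPM in the other-strand column, where Mir425 also averaged 0 CPM. Scaled to 1000000 reads of the whole library, Mir191 averaged 3789 and Mir425 430.3. The log2 ratio between the libraries of Mir191 was 0.11 with TMM totals and 0.083 with DESeq2 size factors in place of -0.093, as the scaling shifts all ratios. By edgeR's exact test the ratios of -0.093 for Mir191 and -0.47 for Mir425 were not called (adjusted p of 1 for both), and 5 genes were called in place of 239. The dispersion of edgeR's test came from the same 2 libraries, so a typical difference could not be called. Without 1 replicate, the rank of Mir191 ranged from 24 to 26 and that of Mir425 from 71 to 87. The log2 ratio of Mir425 kept its direction and call but shrank to -0.27 with TMM totals and -0.29 with DESeq2 size factors. The number of called genes stayed within 1.5 times of 239 under the other alternatives, though its split did not, at 189 higher and 67 lower when scaled to Mir425 and 77 higher and 162 lower with plain totals. No paired analysis was possible because the data hold 1 group. Depth limits Mir425 less than the spread between libraries does, since its counting interval is narrower than the difference between its values.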
